A study of Rattus norvegicus with 36 samples.

Results

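Kidneys of male rats given mercuric chloride were compared 8 h and 2 h after the injection, each time against the untreated rats of the same number series. Mercuric chloride rats received 4 mg/kg under the skin, and 3 were studied at 8 h and 3 at 2 h. Normal rats 11 and 12 served as the controls at 8 h and normal rats 1 to 3 as the controls at 2 h, and the labels give the normal rats no injection. These 11 rats on 13 arrays were all those of the 31 rats on 36 arrays that the comparison calls for, and a rat with 2 arrays counted once. All rats were 6 to 8 weeks old and RNA came from a portion of both kidneys, so every value is a mixture over tubule, vessel, glomerulus and blood cells, in which fewer cells of a type and less RNA per cell cannot be told apart. The labels do not give the strain. The quantity tested throughout is the change at 8 h minus the change at 2 h on the log2 scale, called here the time difference, where a change is the mean of the treated rats minus the mean of their own normal rats.

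Mercuric ion binds thiol groups of proteins and glutathione and accumulates in the proximal tubule, the segment of the nephron that reabsorbs most of the filtered glucose, amino acids and salt. It is taken up by organic anion transporters and as thiol conjugates by amino acid transporters, and it injures chiefly the straight part of the proximal tubule. Cells answer thiol stress with antioxidant genes driven by Nrf2, with heat shock proteins, and with the integrated stress response, in which Atf4 raises genes of amino acid supply. The 2 h and 8 h points lie early in this injury.

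Markers of the labelled tissue were present in all 11 rats. Lrp2, the endocytic receptor megalin of the proximal tubule, had levels of 27.0 to 37.5 times the array median at 8 h, 45.7 and 49.0 in normal rats 11 and 12, 47.6 to 55.4 at 2 h and 53.9 to 66.1 in normal rats 1 to 3. Synpo of the podocyte and Plin1 of fat cells lay at the floor of 0.1 in all 11 rats, and Lep of fat cells at 0.1 to 0.114. Other markers of these tissues lay above it. The glomerular marker Podxl had 0.916 to 5.52, and the fat markers Adipoq and Ucp1 had 0.633 to 2.40 and 0.385 to 3.89. Normal rat 1 stood apart from its group: its correlation with the other 2 rats of that group was 0.970 and 0.978, against 0.986 to 0.992 within the other 3 groups, and its level of Umod, a loop of Henle protein, was 8.17 against 56.2 and 73.7 in normal rats 2 and 3. The 2 sets of normal rats also differed from each other, since 594 of 9383 tested probes (6.33%) were called different between them, 275 higher (2.93%) and 319 lower (3.4%) in normal rats 11 and 12. Array lot, number series and time after injection were therefore separated only by the normal rats, and a gene that differs between the normal sets is given below with that difference.

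Promoters of 3 of the genes described below are shown for reference, because the genes have 3 different time courses: Hspb8 was higher at 8 h and not called at 2 h, Chac1 was high at both times, and G6pc1 was low at 8 h. The sequences are the 250 bases before the gene's start in RefSeq's annotation of the rat assembly GRCr8, on the gene's strand. Capitals mark matches to GAANNTTC in Hspb8, a pair of inverted GAA units as in the heat shock element, and to TGATGNAA, read on the reverse strand, in Chac1 and G6pc1, the letters of an Atf4 composite element. Both motifs were searched on both strands in the 33469 windows of this length, and GAANNTTC was present in 7.23% and TGATGNAA in 3.40% of them. Among the 44 of 56 named genes that have a window, 5 held the first and 3 the second. A match describes letters and shows no binding.
Hspb8, chr12:45837058-45837307: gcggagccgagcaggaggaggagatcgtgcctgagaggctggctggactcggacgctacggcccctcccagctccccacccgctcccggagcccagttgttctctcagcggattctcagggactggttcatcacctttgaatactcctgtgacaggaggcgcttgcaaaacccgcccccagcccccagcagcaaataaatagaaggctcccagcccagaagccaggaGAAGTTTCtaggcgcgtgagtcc
Chac1, chr3:126795881-126796130: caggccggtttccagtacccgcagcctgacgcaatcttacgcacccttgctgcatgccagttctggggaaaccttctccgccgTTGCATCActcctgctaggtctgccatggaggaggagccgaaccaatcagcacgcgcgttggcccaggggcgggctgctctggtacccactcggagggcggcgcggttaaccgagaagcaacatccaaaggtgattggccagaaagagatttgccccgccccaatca
G6pc1, chr10:86807409-86807658: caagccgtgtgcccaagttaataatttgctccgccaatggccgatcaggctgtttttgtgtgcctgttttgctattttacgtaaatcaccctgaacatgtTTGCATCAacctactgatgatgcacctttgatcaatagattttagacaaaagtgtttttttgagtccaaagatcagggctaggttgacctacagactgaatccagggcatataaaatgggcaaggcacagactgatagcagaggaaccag

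Mercuric chloride changed many probes at each time, and 65 changed by a different amount at 8 h than at 2 h. At 8 h 1029 of 9383 probes (11.0%) differed from normal, 496 higher (5.29%) and 533 lower (5.68%), and at 2 h 721 (7.68%) differed, 288 higher (3.07%) and 433 lower (4.61%), by limma with Benjamini-Hochberg adjustment at 0.05. The 2 sets of changes, which share no rat, had a Pearson correlation of 0.588 and a Spearman correlation of 0.469 across the 9383 probes, given as a description, since probes are not independent. Of the probes called at both times 358 were called the same way, 34.8% of the 8 h calls and 49.7% of the 2 h calls, and 5 the opposite way. The time difference was called for 65 probes (0.693%), 47 higher and 18 lower at 8 h (0.501% and 0.192%), and 44 of these (0.469% of probes) differed at least 2-fold. At an unadjusted p under 0.05 there were 885 probes (9.43%).

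**Figure D1:**
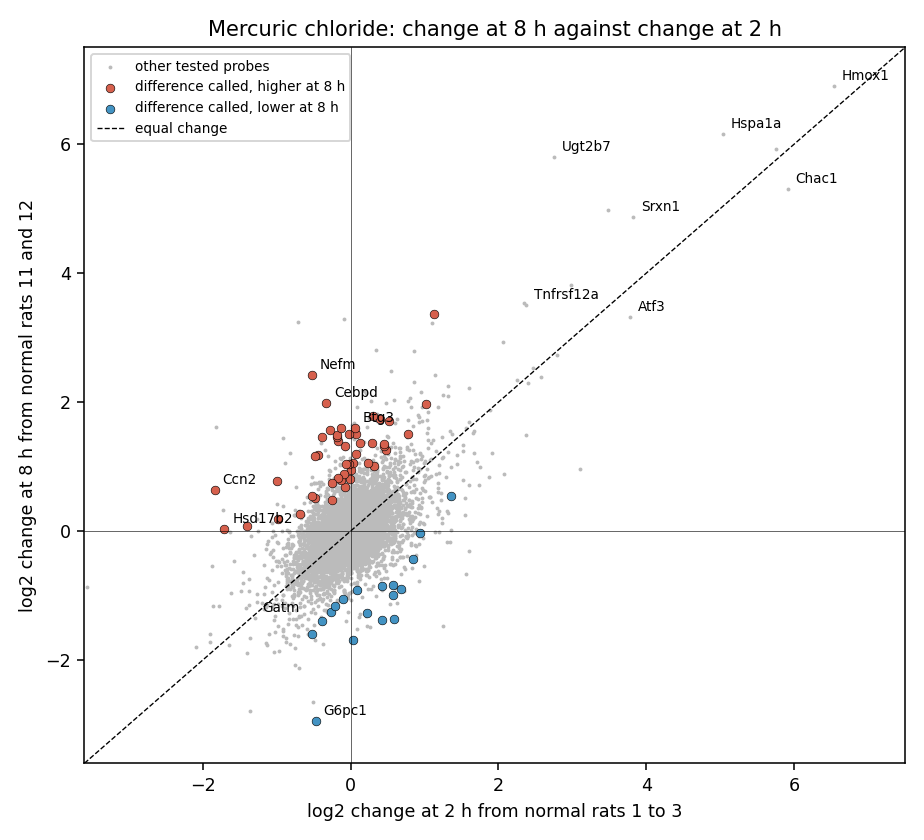
Each point is a probe, with its log2 change at 2 h from normal rats 1 to 3 on the horizontal axis and at 8 h from normal rats 11 and 12 on the vertical axis. The 65 probes whose time difference was called lie off the dashed line of equal change, while Hmox1, Chac1, Hspa1a and Srxn1 were high at both times.

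Most of the called differences were changes present at 8 h and not called at 2 h. Of the 47 probes with a higher time difference 42 were above normal at 8 h, 34 of them with no call at 2 h, 5 were above normal at both times and 3 were above normal at 8 h and below it at 2 h. The other 5 were below normal at 2 h with no call at 8 h. Of the 18 probes with a lower time difference 15 were below normal at 8 h, 11 of them with no call at 2 h. The count depended on single rats: without normal rat 12 it was 30, without mercuric chloride 8 h rat 3 it was 98, and without normal rat 1 it was 66 with an even split of 33 higher and 33 lower. Of the 65 probes 27 were still called without normal rat 12 and 33 without normal rat 11. With only the 4 groups of the comparison fitted, 52 probes were called and 34 of them were among the 65. In that fit 12 of 31 named called genes were not called, with adjusted p-values of 0.0509 for Hsd17b2, 0.0545 for Casp4, Grp and P2ry1, 0.0608 for Mki67, 0.0623 for Tsc22d3, 0.0688 for Ccng1 and Pth1r, 0.0775 for Dcps, 0.0848 for Shprh, 0.114 for Slc7a5 and 0.173 for Slc40a1. The rats of the 2 times did not overlap for any of the 65 probes, which carries little weight, since they did not overlap for 38.4% of all tested probes.

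The normal rats decide the sign or size of some calls. With the 8 h rats set directly against the 2 h rats and no normal rats, 58 of the 65 probes were called the same way (20.0% of all probes were called in that comparison), and 1, P2ry1, had the opposite sign. In 17 of the 65 the normal sets themselves differed. In 5 of the 65 the sham operated rats, whose surgery took 40 min and whose kidneys were taken 8 h later, were called the same way against normal rats 11 and 12, a comparison with 33 calls in all (0.352%).

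The lowest time difference of all called probes was that of a gene of gluconeogenesis. G6pc1, the glucose-6-phosphatase catalytic subunit that releases glucose from the proximal tubule cell, had levels of 1.78, 2.53 and 2.99 times the array median in the 3 rats at 8 h, against 16.4 and 20.2 in normal rats 11 and 12. At 2 h its levels were 23.8, 19.3 and 21.8, against 27.0, 30.04 and 33.0 in normal rats 1 to 3. Every 8 h rat was far below every other rat, while the 2 h rats lay slightly below their normal rats. The change was -2.94 at 8 h and -0.47 at 2 h, a time difference of -2.46 ± 0.40 (SE, 3 rats a treated group; limma adjusted p = 0.00190), and it was called with each of the 11 rats left out. Of the 17 measured genes of gluconeogenesis and glycerol metabolism G6pc1 was the one called, beside 0.693% of all probes. Pck1, the enzyme that commits oxaloacetate to glucose synthesis, had 15.4, 22.1 and 57.6 at 8 h against 64.8 and 68.8 in normal rats 11 and 12, and 74.3, 58.0 and 62.6 at 2 h against 139, 89.2 and 87.7 in normal rats 1 to 3. One 8 h rat lay near the normal rats, and its time difference of -0.64 ± 0.44 was not called (limma adjusted p = 0.782). The glucose-6-phosphate transporter Slc37a4 was below normal at 8 h by -1.12 and at 2 h by -0.80, and its time difference of -0.32 was not called.

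Other enzymes and receptors were lower at 8 h. Aspa, aspartoacylase, which splits N-acetylaspartate, had levels of 5.01, 5.87 and 4.81 at 8 h against 14.2 and 13.3 in normal rats 11 and 12, and 13.4, 14.7 and 14.9 at 2 h against 19.4, 18.1 and 18.4 in normal rats 1 to 3. The 8 h rats formed a group of their own, and the 2 h rats were below their normal rats by less. Its time difference was -1.01 ± 0.14 (limma adjusted p = 0.000346), and the normal sets differed by -0.44, normal rats 11 and 12 minus normal rats 1 to 3. Pth1r, the receptor through which parathyroid hormone lowers phosphate reabsorption, had 2.03, 2.16 and 2.38 at 8 h against 5.15 and 4.61 in normal rats 11 and 12, and 4.10, 3.85 and 3.43 at 2 h against 5.19, 4.26 and 3.85 in normal rats 1 to 3. Its time difference was -0.94 ± 0.18 (limma adjusted p = 0.00733), which was not called without normal rat 11 (adjusted p = 0.0625). Abhd17c, a depalmitoylase of the serine hydrolase family, had 2.99, 3.12 and 3.26 at 8 h against 7.54 and 7.44, and 12.5, 12.6 and 11.5 at 2 h against 11.9, 10.7 and 8.95 in normal rats 1 to 3. It was low at 8 h and not low at 2 h, with a time difference of -1.48 ± 0.18 (limma adjusted p = 4.12e-05) beside a difference of -0.48 between the normal sets.

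Of 43 measured genes of the proximal tubule, its transporters and enzymes, none had a called time difference, against 0.693% of all probes, with a median of 0.01 beside 0.02 over all tested probes, while 13 were below normal and 2 above it at 8 h, and 12 below and 1 above at 2 h. Over all probes 5.68% were below normal at 8 h and 4.61% at 2 h. Gatm, the first enzyme of creatine synthesis, had 21.3, 24.1 and 25.1 at 8 h against 56.4 and 63.3 in normal rats 11 and 12, and 25.0, 34.8 and 23.0 at 2 h against 78.9, 58.8 and 63.8 in normal rats 1 to 3. All 6 treated rats were below all 5 normal rats, and the time difference was -0.05 with a 95% interval of -0.61 to 0.50. A second Gatm probe changed by -0.18 at 8 h and -0.24 at 2 h. Slc7a9, the light chain of the cystine transporter, changed by -0.97 and -1.17, and Car14, a membrane carbonic anhydrase, by -1.72 and -1.91 at 8 h and 2 h. Slc22a5, the carnitine transporter, had 1.62, 2.46 and 1.90 at 8 h against 6.54 and 6.69, and 3.12, 3.75 and 3.35 at 2 h against 6.92, 4.98 and 6.25. It was below normal at both times, further below at 8 h, and the time difference of -0.93 ± 0.31 was not called (limma adjusted p = 0.203). Genes of fatty acid oxidation (41 measured; 8 lower at 8 h and 4 at 2 h) and of the respiratory chain (32 measured; 3 lower at 8 h and 1 at 2 h) had no called time difference. Nor had the 28 measured genes of later segments, from the loop of Henle to the collecting duct, of which none was called at 8 h and 3 were lower at 2 h.

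**Figure D2:**
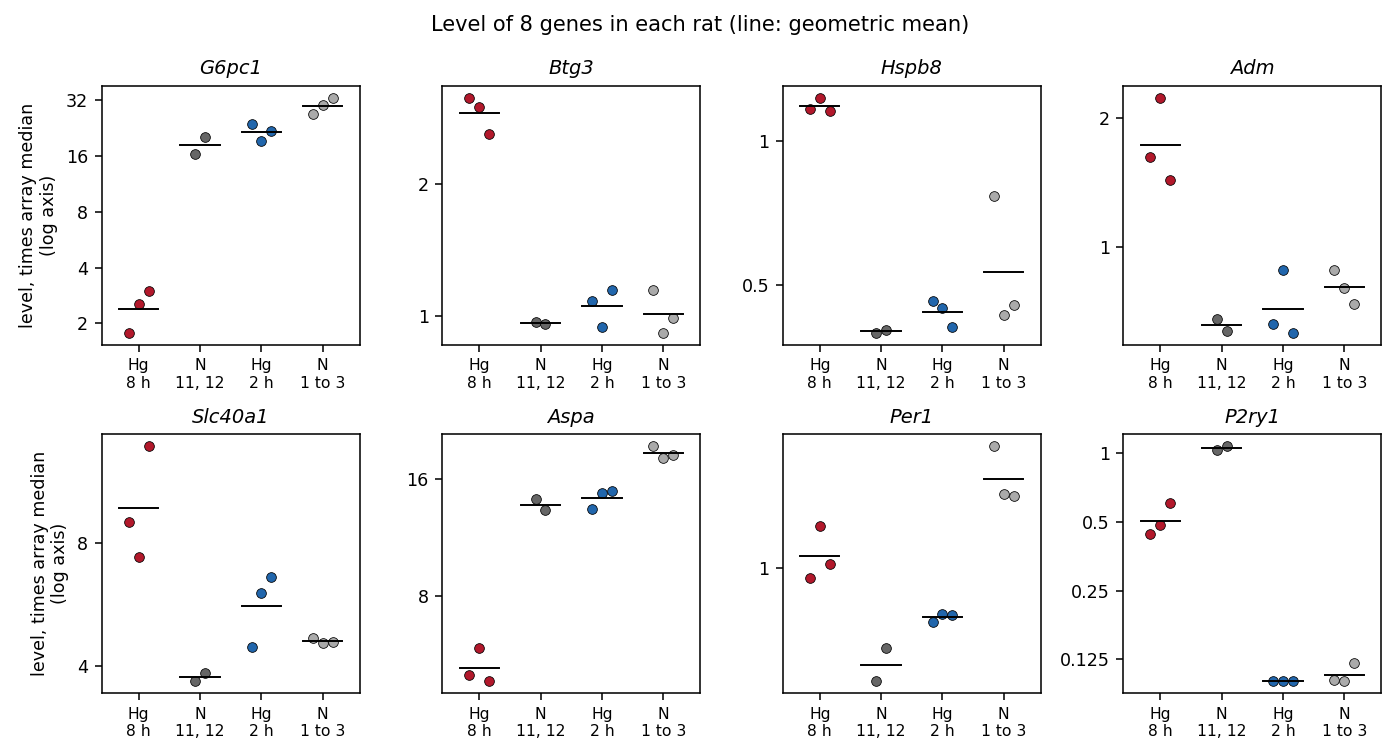
Levels of 8 genes in each rat as multiples of the array median, on log axes, with mercuric chloride rats (Hg) left of their normal rats (N) at each time and a line at the geometric mean. G6pc1 and Aspa were low in the 3 rats at 8 h and Btg3, Hspb8, Adm and Slc40a1 high, whereas Per1 and P2ry1 differed between the 2 sets of normal rats.

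Among stress genes, those with the largest rises had them at both times. Hmox1, heme oxygenase 1, had levels of 94.3, 81.9 and 84.5 at 8 h against 0.826 and 0.636 in normal rats 11 and 12, and 84.9, 76.3 and 81.9 at 2 h against 0.904, 0.894 and 0.814 in normal rats 1 to 3. The treated rats of both times were about equally high, with changes of 6.90 and 6.54 and a time difference of 0.36 (95% interval -0.55 to 1.27; limma adjusted p = 0.934). Chac1, which degrades glutathione and is a target of Atf4, had 7.65, 8.86 and 6.45 at 8 h against 0.185 and 0.199, and 11.8, 14.4 and 8.37 at 2 h against 0.213, 0.194 and 0.158. Its changes of 5.31 and 5.91 differed by -0.61 (95% interval -1.20 to -0.02; limma adjusted p = 0.499). Hspa1a, the inducible Hsp70, had 119, 101 and 44.9 at 8 h against 1.13 and 1.15, and 60.1, 41.2 and 49.5 at 2 h against 1.28, 1.63 and 1.64. One 8 h rat lay within the range of the 2 h rats, and the time difference of 1.11 was not called (95% interval 0.04 to 2.19; limma adjusted p = 0.496). The intervals are wide, so these genes are not shown to have stayed level.

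The broader antioxidant list leaned to 8 h without a call. None of 38 measured genes of Nrf2, thiol and metal defence had a called time difference; the median was 0.32 and 29 were above 0, beside a median of 0.02 over all probes. Against normal, 13 were higher at 8 h and 4 were higher at 2 h, beside 5.29% and 3.07% of all probes. Srxn1, which repairs peroxiredoxins, had 12.4, 10.6 and 14.8 at 8 h against 0.558 and 0.327, and 6.38, 9.25 and 5.97 at 2 h against 0.474, 0.592 and 0.440. Its time difference was 1.04 ± 0.44 (limma adjusted p = 0.383). Txnrd1, thioredoxin reductase, changed by 2.09 at 8 h and 1.32 at 2 h, and Nqo1, a quinone reductase, by 2.42 at 8 h and 1.15 at 2 h, the last not called. Mt1, a metallothionein that binds mercury and zinc, had 179, 156 and 171 at 8 h against 62.2 and 48.4, and 118, 96.0 and 121 at 2 h against 127, 77.2 and 87.1. It was above normal at 8 h by 1.62, and the time difference of 1.39 ± 0.40 was not called (limma adjusted p = 0.125). Gclm, of glutathione synthesis, was above normal at 8 h by 0.63, and its time difference of 0.44 rested on fewer rats, since mercuric chloride 2 h rat 3 and normal rat 3 had no value. Ugt2b7, a glucuronosyltransferase, had 13.3, 11.4 and 22.3 at 8 h against 0.301 and 0.240, and 1.29, 2.21 and 1.72 at 2 h against 0.459, 0.108 and 0.321. All 8 h rats were above all 2 h rats, and the time difference of 3.05 ± 0.95 was not called (limma adjusted p = 0.162). With no normal rats the 8 h and 2 h rats differed by 3.14, which was called (limma adjusted p = 0.000948), as were 20.0% of all probes.

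The small heat shock protein Hspb8, a partner of Bag3 in clearing misfolded proteins, was called at 8 h alone. Its brighter probe had 1.16, 1.23 and 1.15 at 8 h against 0.396 and 0.403 in normal rats 11 and 12, and 0.462, 0.446 and 0.407 at 2 h against 0.766, 0.433 and 0.454 in normal rats 1 to 3. The 8 h rats lay above all rats of the other 3 groups. The time difference was 1.85 ± 0.36 (limma adjusted p = 0.00917) and a second probe gave 1.83, and the brighter probe was not called without normal rat 12 (adjusted p = 0.0575). Hspb8 was the one gene of 17 measured heat shock proteins and chaperones with a called time difference, beside 0.693% of all probes. The median of that list was 0.30. The printed Hspb8 sequence holds the GAANNTTC match starting 23 bases before the gene's start.

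Of 17 measured genes of heme and iron 1 had a called time difference, and of 20 amino acid transporters 2 had one, beside 0.693% of all probes. Slc40a1, ferroportin, which exports iron from cells, had 8.99, 7.40 and 13.7 at 8 h against 3.67 and 3.85 in normal rats 11 and 12, and 4.45, 6.02 and 6.62 at 2 h against 4.68, 4.55 and 4.57 in normal rats 1 to 3. All 8 h rats were above the 2 h rats, and 1 of the 2 h rats lay just below its normal rats. Its time difference was 1.08 ± 0.23 (limma adjusted p = 0.0198) and that of a second probe was 1.48; the brighter probe was not called without normal rat 11 (adjusted p = 0.108), normal rat 12 (0.0984) or mercuric chloride 2 h rat 1 (0.0818). Slc6a9, the glycine transporter 1, had 0.417, 0.386 and 0.398 at 8 h against 0.122 and 0.162, and 0.142, 0.181 and 0.161 at 2 h against 0.172, 0.168 and 0.123. It was up in the 8 h rats alone, with a time difference of 1.44 ± 0.31 (limma adjusted p = 0.0185). Slc7a5, the large neutral amino acid transporter 1 and a target of Atf4, had 0.462, 0.421 and 0.346 at 8 h against 0.159 in both normal rats, and 0.227, 0.281 and 0.229 at 2 h against 0.210, 0.154 and 0.178. The 2 h rats lay between, and the time difference was 0.90 ± 0.21 (limma adjusted p = 0.0392). Against normal, 4 of the 20 transporters were higher and 3 lower at 8 h, beside 5.29% and 5.68% of all probes. Slc6a9 was not called without normal rats 1, 2 or 11 or without rat 1 of the 8 h or 2 h group (adjusted p of 0.0507 to 0.167). Slc7a5 was called with 8 h rat 3, 2 h rat 2 or normal rat 2 left out and with no other rat left out (adjusted p of 0.0665 to 0.184).

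In the wider integrated stress and unfolded protein response, Slc7a5 was the one called time difference among 35 measured genes, beside 0.693% of all probes. Above normal were 12 of the genes at 8 h and 11 at 2 h. Over all probes 5.29% were above normal at 8 h and 3.07% at 2 h. Mthfd2, a mitochondrial folate enzyme and target of Atf4, changed by 2.73 at 8 h and 2.79 at 2 h. Gdf15, a secreted stress cytokine, changed by 2.93 and 2.06, and Atf3, a stress transcription factor, by 3.32 and 3.78, none with a called time difference. A second Atf3 probe changed by 5.92 at 8 h and 5.75 at 2 h. Asns, asparagine synthetase, differed between its probes: the brighter changed by -0.00 at 8 h and -0.21 at 2 h, the other by 2.02 and 0.78 with an uncalled time difference of 1.24 (limma adjusted p = 0.0904). Ddit3 was not measured. Nop58, a core protein of box C/D nucleolar ribonucleoproteins, was above normal at both times, and had 10.2, 9.42 and 9.72 at 8 h against 4.28 and 3.87, and 7.35, 7.73 and 7.92 at 2 h against 5.10, 5.54 and 5.82. The time difference of 0.78 ± 0.16 (limma adjusted p = 0.0105) stood beside a difference of -0.43 between the normal sets, which were called different, and it was not called without normal rat 12 (adjusted p = 0.126); a second Nop58 probe gave 0.61, not called. Nop58 was the one called time difference among 37 ribosomal proteins and translation factors, beside 0.693% of all probes.

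Btg3 and Adm were high at 8 h. Btg3, an antiproliferative protein of the Btg/Tob family, had levels of 3.15, 3.00 and 2.60 at 8 h against 0.966 and 0.956 in normal rats 11 and 12, and 1.08, 0.943 and 1.14 at 2 h against 1.14, 0.914 and 0.987 in normal rats 1 to 3. The 8 h rats stood alone and the other 8 rats shared a narrow range. Its time difference of 1.54 ± 0.18 (limma adjusted p = 4.12e-05) was called in all 25 alternative settings. Adm, adrenomedullin, a vasodilator peptide, had 1.62, 2.23 and 1.43 at 8 h against 0.677 and 0.635, and 0.661, 0.883 and 0.630 at 2 h against 0.884, 0.801 and 0.734. It too was high in the 8 h rats alone, with a time difference of 1.57 ± 0.30 (limma adjusted p = 0.00832) that was not called without normal rat 12 (adjusted p = 0.0693). Adm was the one gene with a called higher time difference among 31 measured genes of glycolysis and hypoxia response, beside 0.501% of all probes. In the same list Ankrd37, a hypoxia inducible gene, went the other way, with 1.10, 1.36 and 1.59 at 8 h against 2.32 and 2.41, and 5.22, 4.05 and 3.59 at 2 h against 3.26, 2.74 and 2.61. Its time difference was -1.40 ± 0.29 (limma adjusted p = 0.0116), not called without normal rat 11 (0.0568), normal rat 12 (0.0984) or mercuric chloride 2 h rat 1 (0.0510).

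Of 24 measured genes of p53 and apoptosis 2 had a called time difference, beside 0.693% of all probes. Casp4, the caspase that senses cytosolic lipopolysaccharide, had 3.80, 5.33 and 2.68 at 8 h against 1.43 and 1.97, and 1.06, 0.910 and 0.838 at 2 h against 1.37, 1.20 and 1.33. The 8 h rats were high and the 2 h rats lay below their normal rats, with a time difference of 1.65 ± 0.32 (limma adjusted p = 0.0103) that was not called without normal rat 11 (adjusted p = 0.103). Ccng1, cyclin G1, a p53 target, had 8.73, 6.19 and 12.0 at 8 h against 4.13 and 3.52, and 1.93, 2.35 and 2.42 at 2 h against 3.72, 2.44 and 3.05. The brighter probe gave a time difference of 1.63 ± 0.35 (limma adjusted p = 0.0178), not called without normal rat 1, 11 or 12 or mercuric chloride 2 h rat 1 (adjusted p of 0.0549 to 0.157), while the second probe gave 0.96 and was not called (adjusted p = 0.198). Cdkn1a, the p21 inhibitor of cyclin dependent kinases, had 7.72, 7.14 and 3.18 at 8 h against 0.991 and 0.660, and 3.82, 4.34 and 2.34 at 2 h against 2.51, 2.08 and 1.25. Its change was 2.79 at 8 h and 0.86 at 2 h, and the time difference of 1.93 ± 0.53 was not called (limma adjusted p = 0.0933), with the normal sets apart by -1.21.

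Of 26 measured cell cycle genes 2 had a called time difference, both lower, beside 0.192% of all probes called lower. Of the 26 time differences 10 were above 0. After quantile normalization 1 of the 26 was called higher and 7 lower, beside 95 and 53 of all probes. Hmmr, a spindle protein and hyaluronan receptor, had 0.549, 0.571 and 0.520 at 8 h against 1.85 and 1.67 in normal rats 11 and 12, and 1.08, 1.04 and 1.03 at 2 h against 1.38, 0.862 and 0.898 in normal rats 1 to 3. The 8 h rats were low and the 2 h rats lay within their normal range. The time difference was -1.73 ± 0.26 (limma adjusted p = 0.000765), a second probe gave -1.79, and the call held with each of the 11 rats left out. Mki67, the proliferation antigen Ki-67, had 0.741, 0.801 and 0.531 at 8 h against 1.36 and 1.34, and 1.37, 1.15 and 0.916 at 2 h against 0.998, 0.727 and 0.611. Its time difference of -1.56 ± 0.37 (limma adjusted p = 0.0423) was called with 8 h rat 2, 2 h rat 3 or normal rat 1 left out and with no other rat left out (adjusted p of 0.0643 to 0.184). Zwint, a kinetochore protein outside the list and named after its values were seen, went the other way, with 9.63, 9.39 and 11.1 at 8 h against 4.05 and 3.74, and 4.11, 4.96 and 5.23 at 2 h against 3.33, 5.04 and 4.82. The time difference of Zwint was 1.23 ± 0.25 (limma adjusted p = 0.0106). Cdk1 and Ccna2, the mitotic kinase and its cyclin partner, had uncalled time differences of -1.45 (limma adjusted p = 0.0747) and -1.42 (0.0870). The normal rats moved with this group: the median of the 26 genes was higher by 0.26 in normal rats 11 and 12 than in normal rats 1 to 3, Hmmr by 0.78 and Mki67 by 0.83, and the part of that in the result was not tested. With no normal rats the difference of the 8 h and 2 h rats was -0.94 for Hmmr and -0.73 for Mki67, both called.

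**Figure D3:**
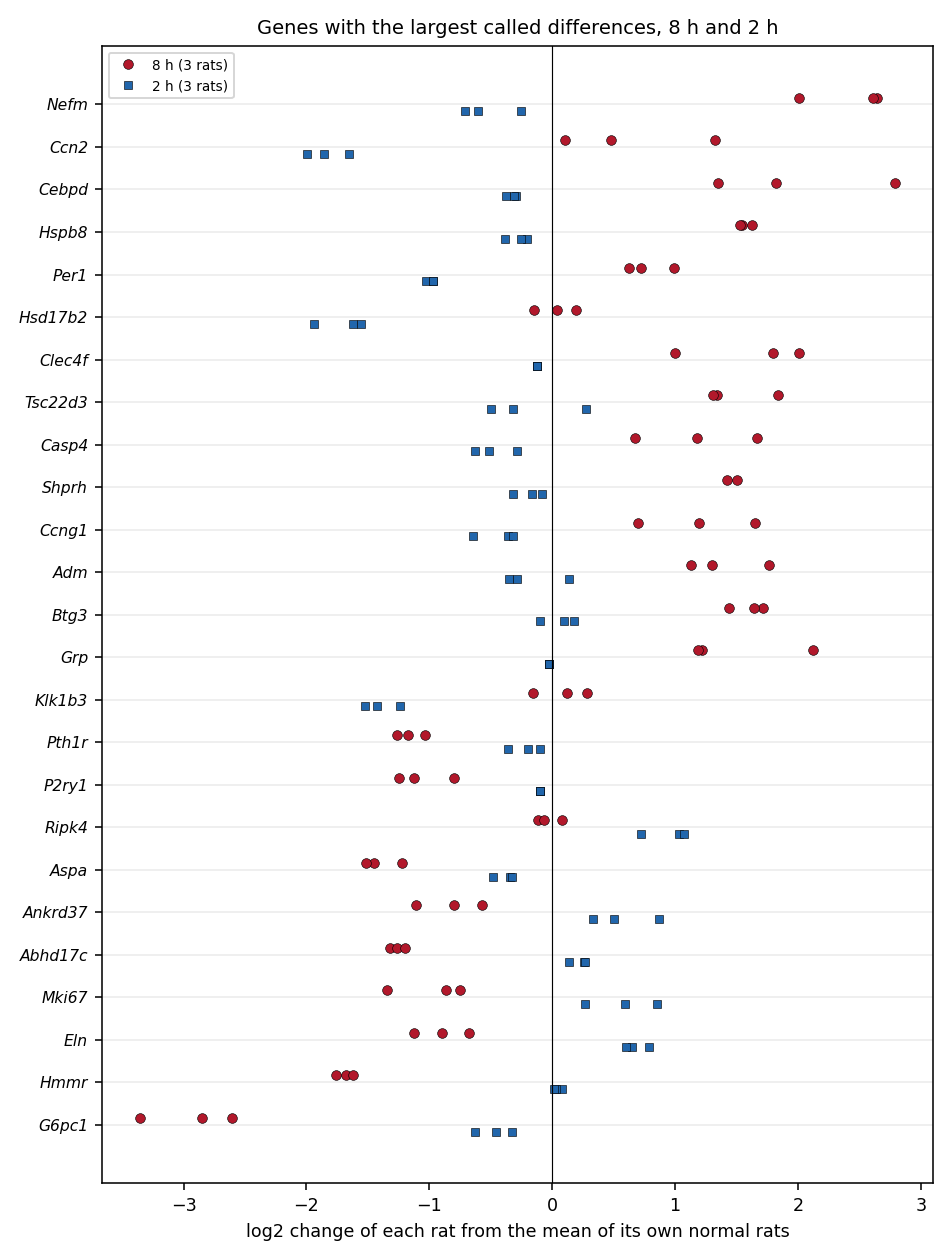
Each symbol is 1 rat's log2 change from the mean of its own normal rats, for the genes with the largest called time differences, with the 3 rats at 8 h above the 3 at 2 h in each line. For Nefm, Hspb8 and Btg3 the 2 h rats lay near 0 or below it and the 8 h rats above 1, while for Hsd17b2, Klk1b3 and Ripk4 the 8 h rats lay near 0.

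Immediate early genes leaned to 8 h and were seldom called. Of 22 measured genes 13 were above normal at 8 h and 7 at 2 h, beside 5.29% and 3.07% of all probes. The time difference was above 0 in 19 with a median of 0.52, and Per1 was the one call, beside 0.693% of all probes. The normal sets stood apart here as well, by a median of -0.56 with 6 of 22 genes lower in normal rats 11 and 12, and the sham rats exceeded normal rats 11 and 12 by a median of 0.52; the part of either in the result was not tested. With no normal rats the median difference of the 8 h and 2 h rats was 0.03. Fos, a component of AP-1, had 2.37, 2.87 and 4.00 at 8 h against 0.459 and 0.224, and 3.64, 2.07 and 1.82 at 2 h against 0.879, 1.31 and 1.20. The treated rats of the 2 times overlapped in level while the normal rats differed, and the time difference of 2.13 ± 1.06 was not called (limma adjusted p = 0.546). Egr1, an early zinc finger factor, changed by 3.81 and 2.98 and Myc by 2.53 and 2.46 at 8 h and 2 h, with no called time difference. Fosl1, the AP-1 member Fra-1, is named here after its values were seen: its dimmer probe was called, with 1.82, 1.55 and 0.724 at 8 h against 0.115 and 0.132, and 0.234, 0.283 and 0.281 at 2 h against 0.117, 0.110 and 0.138. That probe gave 2.24 ± 0.45 (limma adjusted p = 0.0106), and the brighter one gave 1.53 (0.0502).

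Genes that respond to glucocorticoids held 3 of the rises, among 17 measured, beside 0.501% of all probes called higher. In all 3 the sham rats were higher than normal rats 11 and 12 as well. Cebpd, an acute phase transcription factor, had 2.86, 5.61 and 2.06 at 8 h against 0.804 and 0.817 in normal rats 11 and 12, and 1.57, 1.55 and 1.48 at 2 h against 2.16, 1.69 and 1.96 in normal rats 1 to 3. Its time difference was 2.31 ± 0.43 (limma adjusted p = 0.00654), the normal sets differed by -1.25, and the sham rats, at 3.71, 2.95 and 5.18, exceeded their normal rats by 2.25. Against the 2 h rats directly, the 8 h rats were higher by 1.07, also called. Tsc22d3, the glucocorticoid induced leucine zipper, had 2.71, 3.84 and 2.65 at 8 h against 1.18 and 0.979, and 1.71, 1.13 and 1.00 at 2 h against 1.09, 1.61 and 1.60. The 8 h rats exceeded all others in these 4 groups, with a time difference of 1.68 ± 0.33 (limma adjusted p = 0.00917), a directly measured difference of 1.28 and a sham difference of 1.13; it was not called without normal rat 12 (adjusted p = 0.0984). Per1, a clock and glucocorticoid target gene, had 0.953, 1.23 and 1.02 at 8 h against 0.569 and 0.673, and 0.765, 0.796 and 0.793 at 2 h against 1.83, 1.45 and 1.43. It was called above normal at 8 h and below normal at 2 h. The normal sets lay apart by -1.33, and with no normal rats the difference was 0.44 and not called (adjusted p = 0.182). The sham rats exceeded normal rats 11 and 12 by 1.62. Its time difference of 1.77 ± 0.34 (limma adjusted p = 0.00733) was not called without normal rat 11 (0.0568). Of the 17 measured genes of the list the other 14 were not called, and the median was 0.30. What part the normal and sham differences have in these calls was not tested.

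Of 30 measured genes of tubular injury 1 had a called time difference, beside 0.693% of all probes. Ccn2, connective tissue growth factor, had 4.56, 8.20 and 3.52 at 8 h against 3.21 and 3.35 in normal rats 11 and 12, and 3.35, 3.86 and 3.04 at 2 h against 9.62, 13.4 and 13.8 in normal rats 1 to 3. The treated rats of the 2 times overlapped, and the normal rats 1 to 3 stood above the other 3 groups. The time difference was 2.47 ± 0.42 (limma adjusted p = 0.00269), with normal sets apart by -1.89, a sham difference of 1.71 and a directly measured difference of 0.58 that was not called. Clu, clusterin, a secreted chaperone of injured tubules, had 5.64, 6.03 and 7.05 at 8 h against 1.43 and 1.33, and 1.99, 2.98 and 2.37 at 2 h against 1.82, 2.48 and 2.15. It was high at 8 h alone, and its time difference of 1.99 ± 0.49 just missed the threshold (limma adjusted p = 0.0543). Lcn2, neutrophil gelatinase associated lipocalin, had 1.30, 1.22 and 0.830 at 8 h against 0.482 and 0.589, and 0.475, 0.586 and 0.496 at 2 h against 0.461, 0.382 and 0.449. It was above normal at 8 h by 1.04, and the time difference of 0.77 ± 0.35 was not called (limma adjusted p = 0.454). Havcr1, kidney injury molecule 1, had 1.08, 1.55 and 1.86 at 8 h against 0.823 and 0.901, and 0.676, 0.621 and 1.20 at 2 h against 0.411, 0.887 and 1.38, and was called at neither time. Tnfrsf12a, the Tweak receptor, changed by 3.51 at 8 h and 2.37 at 2 h, and Spp1, osteopontin, had a time difference of -0.35 (95% interval -1.67 to 0.98).

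Eln, elastin, was below normal at 8 h and above it at 2 h. Its levels were 1.57, 1.35 and 1.15 at 8 h against 2.25 and 2.81 in normal rats 11 and 12, and 3.09, 2.99 and 3.40 at 2 h against 2.27, 1.61 and 2.09 in normal rats 1 to 3. All 8 h rats were below and all 2 h rats above their own normal rats. The changes of -0.90 and 0.68 gave a time difference of -1.58 ± 0.31 (limma adjusted p = 0.0103), not called without normal rat 12 (adjusted p = 0.122). It was the one call among 15 genes of fibroblasts and smooth muscle, beside 0.693% of all probes. Of the 15 genes 14 had a time difference below 0, with a median of -0.35. Summed over the list, the levels spanned 97.3 to 112 at 8 h, 100.3 to 100.5 in normal rats 11 and 12, 116 to 128 at 2 h and 94.4 to 122 in normal rats 1 to 3. Dcps, a scavenger of mRNA caps, and Pxdc1, a PX domain protein, were called above normal at 8 h (0.54 and 0.51) and below it at 2 h (-0.53 and -0.48), with time differences of 1.07 ± 0.20 and 0.99 ± 0.22. For Dcps the normal sets differed by -0.86, the direct difference of 0.21 was not called, and the time difference was not called without normal rat 12 (limma adjusted p = 0.127). Pxdc1 was called with 8 h rat 3, 2 h rat 3 or normal rat 2 left out and with no other rat left out (adjusted p of 0.0578 to 0.149).

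A few genes changed at 2 h and were back near normal at 8 h. Hsd17b2, which oxidizes estradiol and testosterone, had 0.445, 0.352 and 0.401 at 8 h against 0.437 and 0.347 in normal rats 11 and 12, and 0.111, 0.138 and 0.145 at 2 h against 0.539, 0.498 and 0.288 in normal rats 1 to 3. The 2 h rats were the low ones, close to the floor of 0.1. The change was 0.03 at 8 h and -1.71 at 2 h, a time difference of 1.74 ± 0.28 (limma adjusted p = 0.00190). Klk1b3, a tissue kallikrein, had 9.67, 8.62 and 7.12 at 8 h against 6.78 and 9.26, and 4.40, 5.02 and 4.12 at 2 h against 11.8, 11.3 and 12.5. It was likewise low at 2 h alone, with a time difference of 1.48 ± 0.26 (limma adjusted p = 0.00517) that was not called without normal rat 11 (0.0568). Ripk4, a kinase of epithelial differentiation, was the mirror case, with 1.89, 1.95 and 2.16 at 8 h against 1.92 and 2.18, and 4.46, 3.61 and 4.59 at 2 h against 2.17, 2.06 and 2.32. It was high at 2 h alone, with a time difference of -0.98 ± 0.23 (limma adjusted p = 0.0392), called with 8 h rat 3, 2 h rat 2 or normal rat 3 left out and with no other rat left out (adjusted p of 0.0663 to 0.259).

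Of the remaining named genes, several lay close to the floor, and their differences are no measure of fold. Nefm, the medium neurofilament protein, had the largest called time difference: its levels were 0.671, 1.05 and 1.02 at 8 h against 0.164 and 0.171, and 0.180, 0.248 and 0.194 at 2 h against 0.433, 0.204 and 0.291, a difference of 2.94 ± 0.48 (limma adjusted p = 0.00190). Every 8 h rat lay above all rats of the other 3 groups. Clec4f, a lectin known from Kupffer cells, had 0.381, 0.220 and 0.440 at 8 h against 0.105 and 0.114, and lay at the floor in all 3 rats at 2 h. Its time difference of 1.73 was not called with a floor of 0.2 (0.73; limma adjusted p = 0.0911). Grp, gastrin releasing peptide, had 0.544, 0.532 and 1.02 at 8 h against 0.234 and 0.233, and lay at the floor in all 3 rats at 2 h and 2 of their 3 normal rats. Its normal sets differed by 1.20. P2ry1, a purine receptor, had 0.444, 0.485 and 0.605 at 8 h against 1.04 and 1.07, while the 2 h rats lay at or next to the floor and normal rats 1 to 3 at 0.101, 0.1 and 0.121. Its time difference of -0.96 was therefore a fall at 8 h against no readable level at 2 h, with normal sets apart by 3.30, and the sign turned to 2.34 with no normal rats. It was not called without normal rat 12 (limma adjusted p = 0.0822). Shprh, a ubiquitin ligase of DNA repair, had a time difference of 1.65 in which mercuric chloride 8 h rat 1 had no value, the normal sets differed by -1.31 and the sham rats by 1.19, and the direct difference of 0.33 was not called. Without normal rat 12 it was 1.13 and not called (limma adjusted p = 0.0806).

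Markers of blood and immune cells showed no called difference between the times. Of 29 measured leukocyte genes none was called and 28 had a time difference above 0, with a median of 0.45, beside a median of -0.24 between the normal sets, whose part was not tested. Their summed level spanned 72.7 to 115.7 at 8 h, 63.7 to 66.2 in normal rats 11 and 12, 81.5 to 91.0 at 2 h and 79.5 to 99.7 in normal rats 1 to 3. S100a9, a neutrophil protein, had 2.97, 4.00 and 1.57 at 8 h against 0.221 and 0.239, and 1.34, 1.20 and 0.932 at 2 h against 0.290, 0.188 and 0.207. It was above normal at both times, and its time difference of 1.18 ± 0.69 was not called (limma adjusted p = 0.673). Ptprc, the pan leukocyte antigen CD45, had 0.560 to 0.751 at 8 h, 0.510 and 0.487 in normal rats 11 and 12, 0.553 to 0.657 at 2 h and 0.640 to 0.712 in normal rats 1 to 3. Of 43 cytokines, chemokines and adhesion molecules none had a called time difference. Il1b was above normal at 2 h by 1.87 and not called at 8 h (0.84), and Cxcl1 was above normal at 8 h by 1.92 and not called at 2 h (1.18). Endothelial (13), glomerular (11), red cell (4), adrenal (3) and fat (8) genes had no called time difference, nor had 27 genes of the cytoskeleton or 41 cytochrome P450 and conjugation enzymes. Of 31 proteasome and ubiquitin genes 27 had a time difference above 0 with a median of 0.41 and none was called. Above normal were 8 at 8 h and 1 at 2 h, beside 5.29% and 3.07% of all probes, and the normal sets differed by a median of -0.15.

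**Figure D4:**
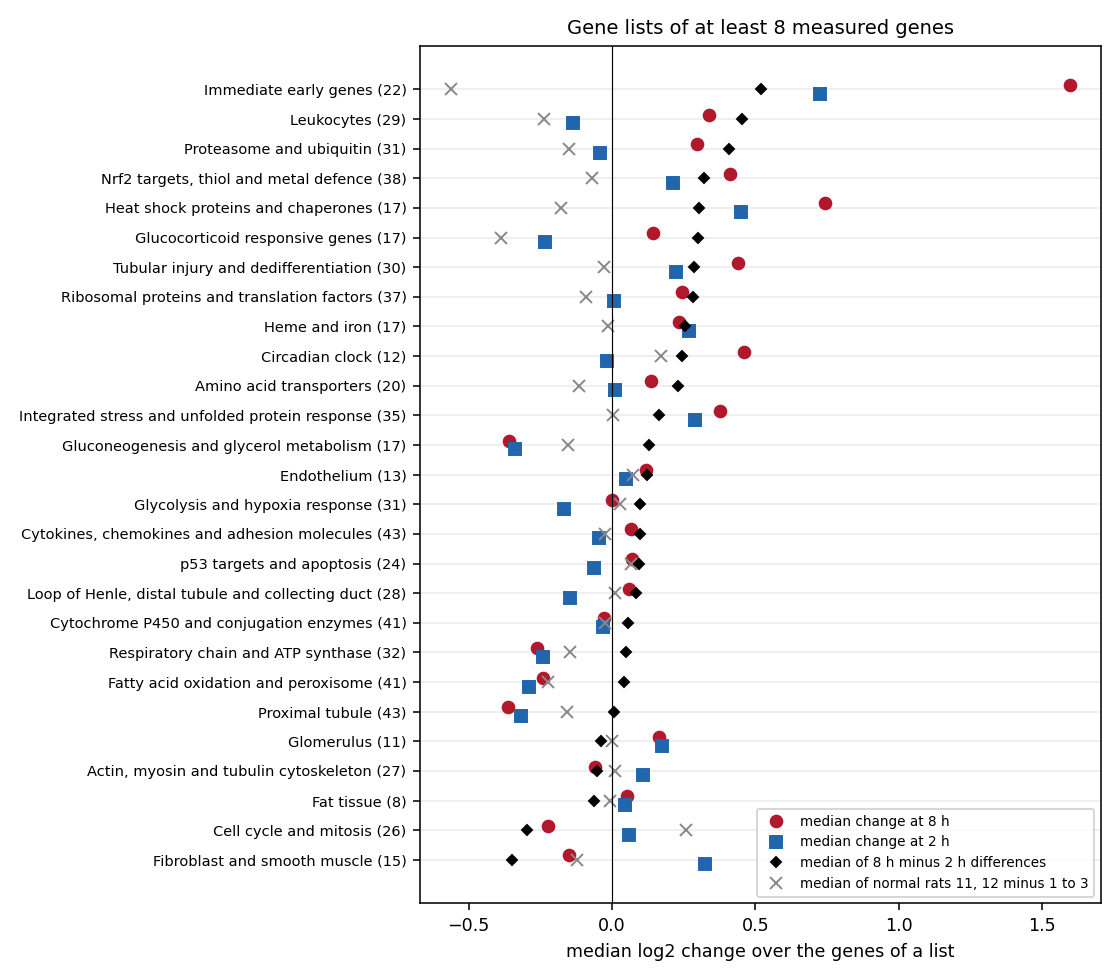
Median log2 change over the measured genes of each list (number in parentheses) at 8 h, at 2 h and as the time difference, with the median difference between the 2 sets of normal rats as crosses. The highest medians of the time difference, 0.52 for immediate early genes and 0.45 for leukocyte genes, belong to lists whose crosses lie below 0, at -0.56 and -0.24.

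The time course after mercuric chloride was set against that after ischemia, in which both kidneys were deprived of blood for 40 min and 3 rats were studied at 8 h and 4 at 2 h. Both ischemia groups were taken to lie on arrays of 1 lot, so that no normal rats enter their difference; P2ry1, which parts the normal sets, lay at 0.1 to 0.149 in all 7. The time difference was called for 3547 probes (37.8%) after ischemia. The like comparison after mercuric chloride, with no normal rats, called 1875 (20.0%), but across the 2 assumed lots. The 0.693% given above is for a difference that also carries the spread of 2 sets of normal rats. The 2 time differences were called different from each other for 567 probes (6.04%), 232 higher (2.47%) and 335 lower (3.57%) after mercuric chloride. The count was 296 without normal rat 12 and 355 without normal rat 11. Ischemia 8 h rat 3 stood apart, with 1.65% of its values at the floor against 10.65% to 12.2% on the arrays of ischemia 8 h rats 1 and 2. Its level was 13.5 for Spp1 against 69.2 and 85.0 in those rats, and 55.9 for Hmox1 against 21.2 and 23.9. What part this rat has in the ischemia counts was not tested.

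Havcr1 and Lcn2 rose between 2 h and 8 h after ischemia, while their time differences after mercuric chloride were smaller and not called. Tnfrsf12a did not share this order, with time differences of 1.13 after mercuric chloride and 0.54 after ischemia, neither called. Havcr1, at the mercuric chloride levels given above, had 19.6, 22.0 and 33.6 at 8 h of ischemia against 1.08, 0.669, 1.07 and 1.21 at 2 h. Its time differences of 0.76 after mercuric chloride and 4.63 after ischemia were apart by -3.87 ± 0.73 (limma adjusted p = 0.00212). Lcn2 had 10.05, 13.4 and 10.7 at 8 h of ischemia against 0.990, 0.988, 1.38 and 1.73 at 2 h, and its time differences of 0.77 and 3.19 were apart by -2.42 ± 0.41 (limma adjusted p = 0.000818). Rdm1, a Rad52 motif protein, Il24, a cytokine of the interleukin 10 family, and Apln, the ligand of the apelin receptor, had time differences of -0.16, 0.08 and -0.48 after mercuric chloride and of 3.99, 3.11 and 2.60 after ischemia. All 3 were called different between the treatments, by -4.14, -3.04 and -3.08. Il24 lay at or near the floor in all 11 rats of the mercuric chloride comparison. Egf, a product of the distal tubule, differed by -0.46 between the times after mercuric chloride and by -2.15 after ischemia, a difference of 1.69 ± 0.33 (limma adjusted p = 0.00268).

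Some genes with a lower level at 8 h than at 2 h of ischemia had a time difference of the opposite sign after mercuric chloride. Fos had 11.1, 9.61 and 12.6 at 8 h of ischemia against 81.8, 75.6, 75.6 and 85.2 at 2 h, and its time differences of 2.13 after mercuric chloride and -2.85 after ischemia were apart by 4.97 ± 1.24 (limma adjusted p = 0.0161), the largest such value by the rule. The other Fos probes had time differences of 1.45 and 0.55 after mercuric chloride, the normal sets were apart by -1.80 on the brightest probe, which was not called, and with no normal rats its 8 h and 2 h rats differed by 0.33. Tsc22d3 had 1.22, 1.31 and 0.792 at 8 h of ischemia against 3.35, 2.72, 2.64 and 2.72 at 2 h, with time differences of 1.68 and -1.40. Ccn2 (2.47 and -1.58), Per1 (1.77 and -1.33), Apoo, a mitochondrial membrane protein (1.94 and -1.80), and Depp1, a FoxO target (2.34 and -0.95), had the same pair of signs, although Apoo and Depp1 were not called after mercuric chloride, nor Depp1 after ischemia. In each of these 4 the normal sets differed, by -1.89, -1.33, -1.98 and -2.10, which enters the mercuric chloride side alone. With no normal rats the 8 h and 2 h rats of mercuric chloride differed by 0.58 for Ccn2, 0.44 for Per1, -0.05 for Apoo and 0.24 for Depp1, none called, so that the sign of Apoo turned. After ischemia Apoo had 4.34, 4.63 and 0.540 at 8 h against 8.75, 7.73, 6.74 and 7.70 at 2 h, with ischemia 8 h rat 3 far below the other rats. G6pc1 fell between the times after both, by -2.46 after mercuric chloride and -1.75 after ischemia, and the 2 were not called different (-0.71, limma adjusted p = 0.455). Aspa likewise had -1.01 and -1.07, and Clu 1.99 and 2.22, neither called different.

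**Figure D5:**
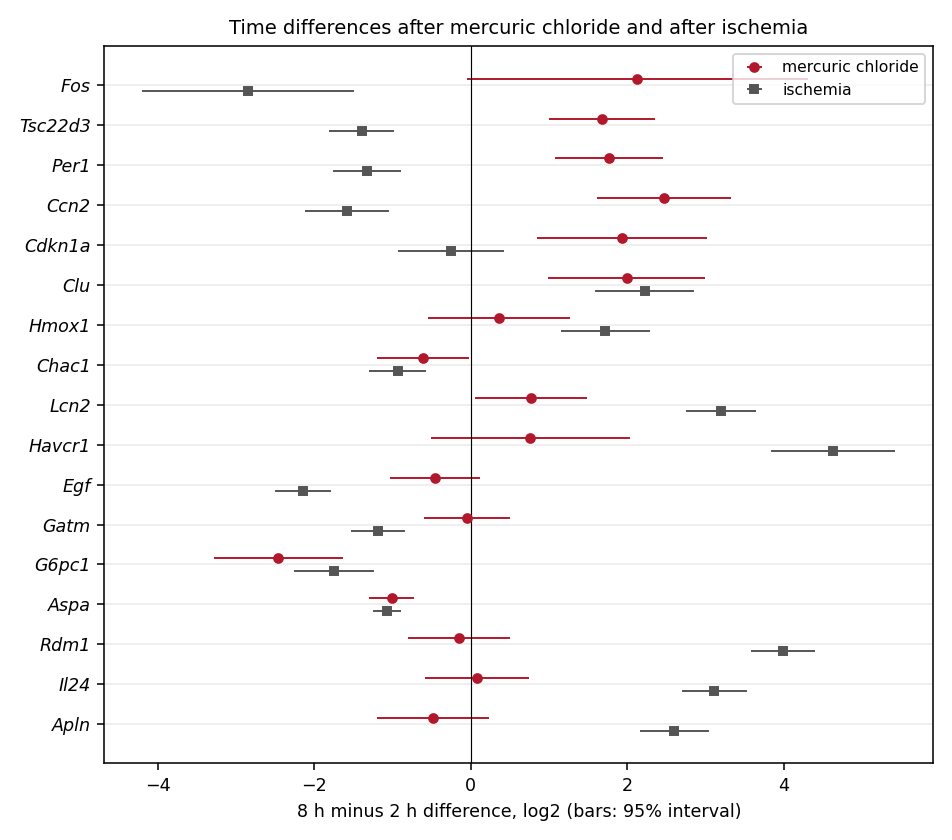
Change from 2 h to 8 h on the log2 scale after mercuric chloride (circles, against normal rats of each set) and after ischemia (squares), with 95% intervals. Havcr1, Lcn2, Rdm1, Il24 and Apln lie far to the right after ischemia alone, Fos, Tsc22d3, Per1 and Ccn2 lie on opposite sides of 0, and G6pc1 and Aspa lie to the left in both.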

How the data were processed

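Kidney RNA was measured on 1-colour CodeLink arrays with 9911 probes, labelled by the CodeLink standard protocol per the labels. For the scanner software and the scaling, the labels used here name nothing. The deposited values, recorded as an unusual unit, were each 2 raised to the power of an intensity divided by about its array's median, as read from the values. Taking log2 of each deposited value gave the linear intensity (a 100% share of 347605 values were whole multiples of 0.0001 within 1e-06), and a deposited 0.5 was treated as missing (0.969%). Values of sham rat 3 were moved by 2 lines (correlation with the other arrays' median 0.984 moved and 0.0652 as deposited). Each intensity was scaled to its array's median and values under 0.1 were raised to 0.1, the floor, before log2; a level in the text is this multiple of the median before log2, compared only within a probe.

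Duplicate arrays were averaged with avearrays. A probe was tested with at least 2 rats measured in each of the 4 groups, at least 0.667 of all rats measured and at least 3 above the floor. In limma 3.58.1 under R 4.3.3, lmFit and eBayes fitted all 31 rats in 10 group means, with the normal rats divided by number series, leaving 21 residual degrees of freedom; Benjamini-Hochberg adjustment ran over 9383 probes, with calls under 0.05. The procedure was tested on simulated data. The labels name no lot for an array; the number series of the normal rats was assumed to mark it. P-values and standard errors rest on a spread between rats estimated for each probe from all 31 rats, not from the 11 compared alone. The number of rats limits the precision.

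Probes with 1 symbol numbered 7229, with several 21 and with none 2661; a gene is given by its brightest probe. The members and the 29 gene lists were chosen with earlier results of these data known. Genes named are up to 15 in each direction with the largest called time difference and no overlap of rats, up to 6 called members of each list with 22 key genes, up to 10 called in opposite directions at the 2 times, and up to 10 with the largest called difference from ischemia. Replicate numbers did not pair the rats, since the correlations of same-numbered deviations were 0.015, 0.0605 and 0.0719. Alternatives covered the normal rats, groups fitted, floor, scaling, filters, duplicate arrays, variance model, sham rat 3, a replicate block and each rat left out.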

Additional observations from a re-analysis of the deposited data

Results flagged for a closer look

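The change from normal differed between 8 h and 2 h for 65 probes by the test of the difference itself, and the time course differed between mercuric chloride and ischemia for 567 probes. Per1 (1.77), Dcps (1.07) and Pxdc1 (0.99) were called above normal at 8 h and below normal at 2 h, with a called time difference in each. Eln (-1.58) was called below normal at 8 h and above it at 2 h. For Per1 and Dcps the 2 sets of normal rats were themselves called different, and for Eln and Pxdc1 they were not.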

How the results depend on the processing

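Of 65 probes called, the count was 1875 with no normal rats (58 shared and called the same way). It was 148 after quantile normalization (64 shared), 100 with scaling to the 75th percentile (65 shared) and 4 with sham rat 3 as deposited. A setting chosen after seeing the data left out normal rat 1, ischemia 8 h rat 3 and 1 array from rat 1 of the volume depletion group. The count in that setting was 214 (64 shared). Leaving out 1 rat gave 30 to 98. The 44 probes called and at least 2-fold became 301 with no normal rats, 72 after quantile normalization and 4 with sham rat 3 as deposited. They became 83 without normal rat 1, ischemia 8 h rat 3 and that volume depletion array, and 24 to 65 with 1 rat left out. The 567 probes whose time course differed from that of ischemia became 1781 with no normal rats and 296 to 551 with 1 rat left out. The time difference of P2ry1 was 2.34 with no normal rats. The count was within 1.5 times of 65 under 18 of 25 settings, but the probes differed: with only the 4 groups fitted 34 of 52 were among the 65, and without normal rat 11 33 of 47. With replicate numbers as a block the count was 66, against 65, and the block correlation was -0.018; the numbers share no animal, so this is no paired design. Only Btg3 of 31 named called genes was called under all 25 settings. The setting with sham rat 3 as deposited, 2 lines out of step with the probe names, lost 29 of the 31. Abhd17c, Aspa, Cebpd, G6pc1, Hmmr and Nefm were lost there alone and called under the other 24. Mki67, Pxdc1, Ripk4 and Slc7a5 were each called with 3 of 11 rats left out in turn. The causes were not tested. Probes near the floor, and 2 normal rats at 8 h, limit what can be called.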
